A study of Mus musculus with 12 samples.

Results

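The miR-30 family is a set of microRNAs (miRNAs), short RNAs that lower the output of messenger RNAs carrying a match to their seed, the stretch from base 2 to base 8. The 6 members described here, mmu-miR-30a, mmu-miR-30b, mmu-miR-30b*, mmu-miR-30c, mmu-miR-30d and mmu-miR-30e, were chosen by name among the 577 miRNAs of a one-colour Agilent mouse miRNA array. Of these 6, 5 are main strands of their hairpins, and mmu-miR-30b* is the passenger strand, the arm that is usually degraded. All 6 were among the 225 miRNAs that were tested, a test being made where all 3 arrays of some line read the miRNA well above background. mmu-miR-30b* passed that filter only through 4T1, so the counts of calls below are over the 5 main strands. The counts by processing at the end are the exception, and are over all 6.

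The samples were 4 mouse breast cancer cell lines, 67NR, 168FARN, 4TO7 and 4T1, with 3 arrays each and 12 in all. Every line was taken from breast cancer that arose by itself in Balb/C mice, and is labelled wild type and female. The labels call 4T1 metastatic and 67NR, 168FARN and 4TO7 non-metastatic, and they name no treatment. The study set the lines out as a series of steps in tumour progression and asked which miRNAs differ between 4T1 and the rest. Each group is 1 cell line, so a difference between groups is one between these lines. Whether the repeats came from separate cultures is not given, and p-values here cover only the spread among these arrays, part or all of which may be technical.

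As background, miR-30 main strands are present in many epithelial tissues, and in breast cancer work they are known as repressors of the tumour-initiating state and of epithelial-mesenchymal transition. Among the messenger RNAs reported as their targets are those of UBC9, an enzyme that attaches SUMO, of integrin beta 3, an adhesion receptor, and of the transcription factor Snail. The mouse genes lie in 3 pairs. Mir30a and Mir30c-2 are neighbours on chromosome 1, Mir30b and Mir30d on chromosome 15, and Mir30e and Mir30c-1 on chromosome 4 within the span of Nfyc, the gene of a subunit of the transcription factor NF-Y (GRCm38.p6). In mm9, the build of the probe annotation, the probes of mmu-miR-30a and mmu-miR-30c lie 19440 bases apart at chr1:23279118-23279134 and chr1:23298558-23298575. Those of mmu-miR-30b (chr15:68169031-68169047) and mmu-miR-30d (chr15:68172819-68172832) lie 3788 bases apart, and the probe of mmu-miR-30e is at chr4:120445265-120445281. The mature miR-30c strand is the same from Mir30c-1 and Mir30c-2, so its level does not tell the genes apart.

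RefSeq mature sequences (GRCm38.p6) were matched for 3 of the 6 members, and are shown because the members that differ so little in sequence were read at different levels across the lines. They are written 5′ to 3′ with the seed in capitals, and mmu-miR-384-5p is added as the other miRNA that carried this seed among the 466 array names with a sequence.
mmu-miR-30a: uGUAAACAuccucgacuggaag
mmu-miR-30e: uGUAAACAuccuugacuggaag
mmu-miR-30c: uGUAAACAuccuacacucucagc
mmu-miR-384-5p: uGUAAACAauuccuaggcaaugu
Counted from the 5′ end, mmu-miR-30a and mmu-miR-30e are identical at 21 of 22 positions and differ by C13U. mmu-miR-30a and mmu-miR-30c are identical at 17 of 22 positions, with the differences C13A, G14C, G18C, G19U and A20C, and mmu-miR-30c carries 1 further base. mmu-miR-384-5p shares the seed, but is identical to mmu-miR-30a at only 12 of 22 positions. All probes of a miRNA end at 1 shared position, and the spacing of these ends between the arms of a hairpin equals the spacing of the 3′ ends in RefSeq (41 bases for miR-30a, 39 for miR-30c from Mir30c-2 and 42 for miR-30e). The longest probes of mmu-miR-30a and mmu-miR-30e therefore lie over bases 6 to 22, which include position 13. Whether RNA of 1 member also bound the probe of another was not tested.

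Levels are log2 of the processed signal divided by the array's 75th percentile over the 170 probes read well above background on every array, and are given ± the standard deviation (SD) with n = 3 arrays per line. A level compares lines for 1 miRNA, never 1 miRNA with another, since probes differ in brightness. Differences are log2 ± their standard error (SE), and a difference was called at a limma p, adjusted by Benjamini-Hochberg over the 225 miRNAs, below 0.05. The 75th percentile itself was 358 to 460 on the 67NR arrays, 600 to 671 in 4TO7, 889 to 1136 in 4T1 and 791 to 1213 in 168FARN. The 67NR arrays stood apart from the rest: their correlation with arrays of other lines over the tested miRNAs was 0.540 to 0.637, against 0.837 to 0.965 between the other lines and at least 0.993 within a line. The array's control probe hur_5 read 180 to 207 on the 67NR arrays and 1.25 to 6.36 on the others, and the part of either fact in the differences from 67NR was not tested. Slide 1 held the 67NR arrays and 168FARN replicate 1, and slide 2 the other 8 arrays.

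The line in which a main strand was highest was 67NR for mmu-miR-30b, mmu-miR-30c, mmu-miR-30d and mmu-miR-30e, and 168FARN for mmu-miR-30a. The levels of mmu-miR-30e were -0.91, -0.87 and -0.80 on the 67NR arrays, -1.98, -1.95 and -1.99 on those of 168FARN, -2.13, -2.06 and -2.11 on those of 4TO7, and -2.32, -2.29 and -2.27 on those of 4T1. No line overlapped another, and 4T1 was the lowest of the 4. Its means were -0.86 ± 0.06 in 67NR, -1.97 ± 0.02 in 168FARN, -2.10 ± 0.04 in 4TO7 and -2.29 ± 0.02 in 4T1. Each neighbouring pair in that order differed in the fit, by 1.11 (limma adjusted p = 3.27e-11), 0.13 (adjusted p = 0.00625) and 0.19 (adjusted p = 0.000504).

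mmu-miR-30c, which shares the Nfyc locus with mmu-miR-30e through Mir30c-1, read -0.83, -0.82 and -0.75 on the 67NR arrays, -1.48, -1.43 and -1.45 on those of 168FARN, -1.91, -1.82 and -1.91 on those of 4TO7, and -1.73, -1.72 and -1.69 on those of 4T1. Again no lines overlapped, but here 4TO7 was lowest. The means were -0.80 ± 0.04, -1.45 ± 0.02, -1.88 ± 0.05 and -1.71 ± 0.02 in 67NR, 168FARN, 4TO7 and 4T1. The steps down from 67NR to 168FARN, 4T1 and 4TO7 were 0.66, 0.26 and 0.17, and all 3 were called (limma adjusted p from 3.89e-09 to 0.00112).

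mmu-miR-30b read -0.09, 0.03 and 0.02 on the 67NR arrays, -1.02, -1.04 and -1.05 on those of 168FARN, -0.73, -0.71 and -0.84 on those of 4TO7, and -0.34, -0.27 and -0.26 on those of 4T1. Its arrays also separated by line, with 168FARN and not 4T1 or 4TO7 at the bottom. The order 67NR, 4T1, 4TO7, 168FARN had steps of 0.28, 0.47 and 0.28, each of which was called (limma adjusted p from 3.83e-06 to 0.000166).

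mmu-miR-30d, from the same locus on chromosome 15, read -1.89, -1.92 and -1.81 on the 67NR arrays, -3.66, -3.36 and -3.29 on those of 168FARN, -3.29, -3.21 and -3.43 on those of 4TO7, and -2.96, -2.92 and -2.73 on those of 4T1. The 168FARN and 4TO7 arrays overlapped, and their means of -3.44 ± 0.20 and -3.31 ± 0.11 differed by 0.13 ± 0.10 (SE; limma adjusted p = 0.275). 67NR was above 4T1 by 1.00 ± 0.10 and 4T1 above 4TO7 by 0.44 ± 0.10 (SE; limma adjusted p = 1.80e-06 and 0.00212).

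mmu-miR-30a moved over a narrower range: -0.45, -0.41 and -0.41 on the 67NR arrays, -0.26, -0.16 and -0.29 on those of 168FARN, -0.94, -1.01 and -0.85 on those of 4TO7, and -0.47, -0.48 and -0.37 on those of 4T1. The 67NR and 4T1 arrays overlapped, with means of -0.42 ± 0.02 and -0.44 ± 0.06 that differed by 0.02 ± 0.05 (SE; limma adjusted p = 0.878). 168FARN lay above them by 0.19 from 67NR (limma adjusted p = 0.00423), and 4TO7 below 4T1 by 0.49 (adjusted p = 6.27e-06).

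mmu-miR-30b* was close to the limit of reading. It was at the floor, log2 -5.58, on all arrays of 67NR and 168FARN, though 2 of the 168FARN arrays were marked well above background, and at -5.58, -5.50 and -5.58 in 4TO7, where no array was. In 4T1 it read -5.21, -5.16 and -5.22, and all 3 arrays were well above background. The 4T1 level was at least 1.15-fold that of 4TO7 and at least 1.302-fold that of 168FARN, a bound being the 4T1 mean over the lowest signal read well above background on each array, or over the strand's own floored level where that is higher. Both bounds hold only with the background and floor used here. With another background correction (normexp) the difference was -0.22 against 4TO7 and 0 against 168FARN, and with the floor doubled it was 0 against both. Against 67NR no fold can be given, because the lowest readable level on those arrays lay above the 4T1 level.

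**Figure D1:**
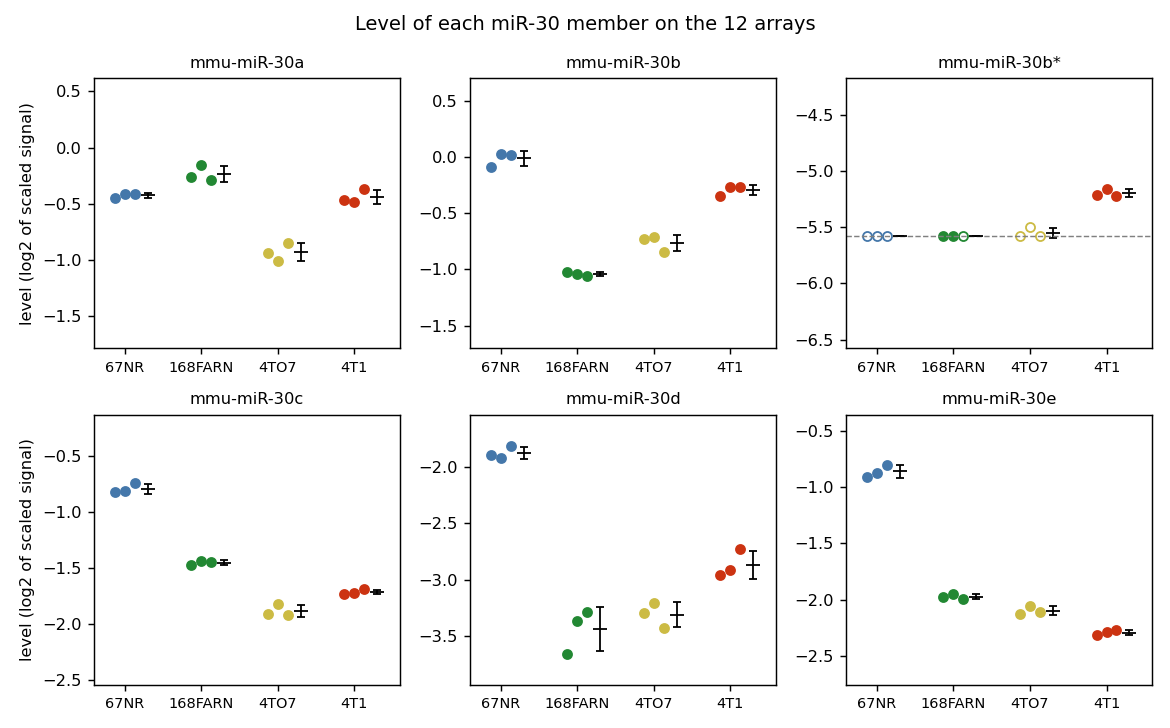
Level of each member (log2 of scaled signal, vertical axis, the same span in every panel) on the 3 arrays of each line; filled points were well above background, open points were not, bars are the mean ± SD of 3 arrays, and the dashed line is the floor. Arrays of 4 main strands are highest in 67NR, while mmu-miR-30a is highest in 168FARN and mmu-miR-30b* leaves the floor in 4T1.

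In 4T1 against the mean of the 3 non-metastatic lines, the family did not move together. mmu-miR-30e was lower by 0.65 ± 0.03 (SE; 1.57-fold; limma adjusted p = 1.44e-09), with all 3 of the 4T1 arrays below the other 9. mmu-miR-30c was lower by 0.34 ± 0.03 and mmu-miR-30b higher by 0.31 ± 0.04 (SE; adjusted p = 4.17e-07 and 9.54e-06), and for both the 4T1 arrays lay within the range of the others. mmu-miR-30a (0.09 ± 0.04, adjusted p = 0.0551) and mmu-miR-30d (0.01 ± 0.08, adjusted p = 0.945) were not called. Both were called higher after quantile scaling, when unscaled, or if the percentile was taken over all probes: mmu-miR-30a by 0.18, 0.80 and 0.50 in that order, and mmu-miR-30d by 0.33, 0.71 and 0.41. As scaled here, 1 of the 5 main strands was called higher and 2 lower, where 28% of all tested miRNAs were called higher and 59.6% lower. The median difference was 0.01 over the main strands and -0.34 over all 225. The call of mmu-miR-30c rested on 67NR: without the 67NR arrays its difference was -0.05 (adjusted p = 0.118), mmu-miR-30d was higher by 0.51 (adjusted p = 0.00267), mmu-miR-30a by 0.14 (adjusted p = 0.0286) and mmu-miR-30b by 0.61, while mmu-miR-30e stayed lower by 0.26 (adjusted p = 1.77e-05). The sign of mmu-miR-30c turned, to 0.37 when unscaled and 0.07 when scaled to the 75th percentile of all probes, as did that of mmu-miR-30e when unscaled, to 0.06.

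Against 67NR, 4T1 was lower in mmu-miR-30b, mmu-miR-30c, mmu-miR-30d and mmu-miR-30e. The differences were -0.28 ± 0.04, -0.92 ± 0.03, -0.996 ± 0.10 and -1.43 ± 0.03 (SE), the last a 2.70-fold lower level. Those were 4 of the 5 main strands and none was called higher, where 47.6% of tested miRNAs were called lower and 32% higher. mmu-miR-30a was not called. With no scaling between arrays the first 3 of these turned higher, at 1.02, 0.39 and 0.31, and mmu-miR-30e was at -0.13 (limma adjusted p = 0.496); with the 75th percentile of all probes mmu-miR-30b was higher by 0.43 and mmu-miR-30a by 0.69.

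In 168FARN against 67NR, 4 main strands were lower and mmu-miR-30a was higher, where 48% of tested miRNAs were called lower and 40% higher. mmu-miR-30d was lower by 1.57 ± 0.10 (SE; 2.96-fold), mmu-miR-30e by 1.11, mmu-miR-30b by 1.03 and mmu-miR-30c by 0.66. On slide 1 alone, with 1 array of 168FARN, the differences were -1.79, -1.12, -1.01 and -0.68, and that of mmu-miR-30a was 0.16. With slide as a term mmu-miR-30a was no longer called (0.16, limma adjusted p = 0.0621). With no scaling mmu-miR-30b, mmu-miR-30c and mmu-miR-30e turned higher, at 0.17, 0.54 and 0.09, and mmu-miR-30d stayed lower at -0.37.

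In 4TO7 against 67NR all 5 main strands were lower, where 48% of tested miRNAs were called lower and 31.6% higher. The differences were -0.51 for mmu-miR-30a, -0.75 for mmu-miR-30b, -1.09 for mmu-miR-30c, -1.44 for mmu-miR-30d and -1.24 for mmu-miR-30e, with SE from 0.03 to 0.10. The sign of the last 3 was the same with each scaling tried, while with none mmu-miR-30a was at 0.07 and mmu-miR-30b at -0.17, neither of them called, and scaling to the 75th percentile of all probes put mmu-miR-30a at -0.08 (limma adjusted p = 0.388). No slide held both 67NR and 4TO7 or 4T1. With slide as a term, which 168FARN replicate 1 alone links across slides, mmu-miR-30d was at -1.77 in 4TO7 and -1.33 in 4T1 against 67NR, and the other main strands moved by less.

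Against 4TO7, which like 4T1 lay wholly on slide 2, 4T1 was higher in 4 of the 5 main strands and lower in mmu-miR-30e. Among all tested miRNAs 24.9% were called higher and 35.6% lower, with a median difference of 0.00. mmu-miR-30a was higher by 0.49 ± 0.05, mmu-miR-30b by 0.47 ± 0.04, mmu-miR-30d by 0.44 ± 0.10 and mmu-miR-30c by 0.17 ± 0.03 (SE; limma adjusted p from 3.83e-06 to 0.00212), and mmu-miR-30e was lower by 0.19 ± 0.03 (adjusted p = 0.000504). The 4 rises kept their sign and call with each scaling tried, but with normexp background correction mmu-miR-30c and mmu-miR-30d were at 0.02 and 0.03 and not called. The sign of mmu-miR-30e turned to 0.09 when scaled to the 75th percentile of all probes and to 0.53 when unscaled.

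Against 168FARN, 4T1 was higher in mmu-miR-30b by 0.75 ± 0.04 and in mmu-miR-30d by 0.57 ± 0.10, the pair on chromosome 15, and lower in mmu-miR-30a by 0.20 ± 0.05, mmu-miR-30c by 0.26 ± 0.03 and mmu-miR-30e by 0.32 ± 0.03 (SE; limma adjusted p from 3.24e-08 to 0.00312). Of all tested miRNAs, 34.2% were called higher and 39.6% lower. On slide 2 alone the 5 main strands stood at 0.75, 0.46, -0.22, -0.27 and -0.32 in the same order, all called. Both rises held with every scaling tried. The 3 falls were not called with no scaling or with the 75th percentile of all probes, where mmu-miR-30a was at 0.03, and with quantile scaling mmu-miR-30c was at -0.11 (limma adjusted p = 0.104).

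In 4TO7 against 168FARN, mmu-miR-30a was lower by 0.70 ± 0.05, mmu-miR-30c by 0.43 ± 0.03 and mmu-miR-30e by 0.13 ± 0.03, and mmu-miR-30b was higher by 0.28 ± 0.04 (SE; limma adjusted p from 1.55e-07 to 0.00625). mmu-miR-30d was not called. Of all tested miRNAs 35.1% were called higher and 39.1% lower. On slide 2 alone mmu-miR-30a was at -0.71, mmu-miR-30b at 0.28, mmu-miR-30c at -0.44, mmu-miR-30d at 0.02 and mmu-miR-30e at -0.13. With no scaling mmu-miR-30b turned to -0.34 (limma adjusted p = 0.0660) and mmu-miR-30d to -0.49. With quantile scaling mmu-miR-30e was at -0.08 (limma adjusted p = 0.0949) and mmu-miR-30d was called higher, by 0.41.

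**Figure D2:**
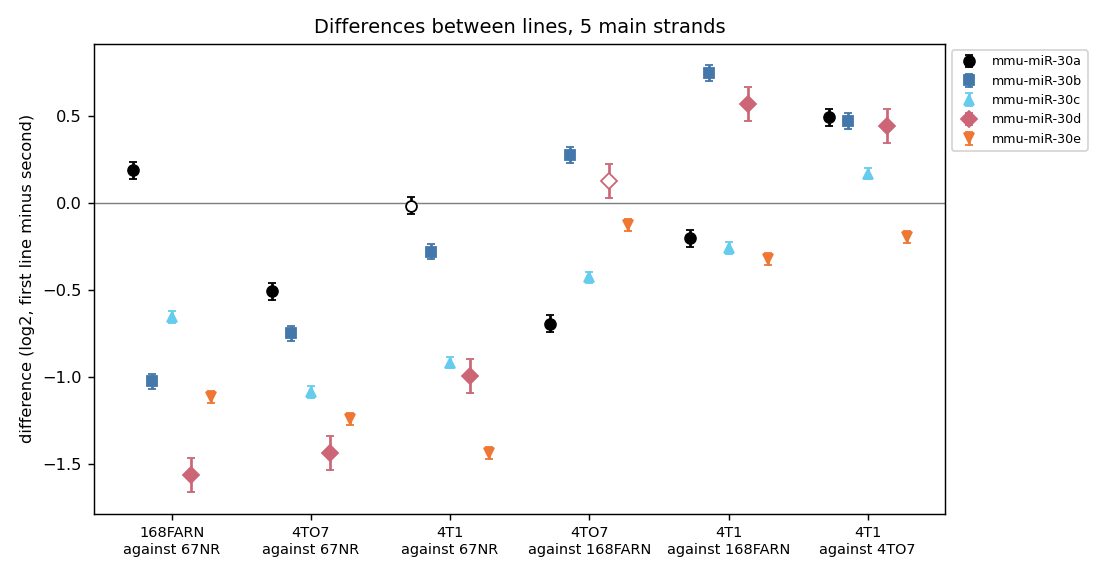
Difference between lines (log2, first line minus second, vertical axis) for the 5 main strands in the 6 pairs of lines; points are limma estimates ± SE and open points were not called. In each of the 3 comparisons with 67NR, which share its arrays, mmu-miR-30a is the highest point, and mmu-miR-30e is the 1 point below 0 in 4T1 against 4TO7.

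Scaling mattered for all miRNAs, not for the family alone. Leaving it out moved the median difference over the 225 by 0.62 in 4T1 against the mean. The calls of 4T1 against the mean split into 63 higher and 134 lower as given, 93 and 98 when scaled to the 75th percentile of all probes, by quantile scaling 88 and 107, 110 and 66 with none, and 38 and 170 with normexp background correction. For 4T1 against 67NR the split was 72 and 107, against 90 and 87, 91 and 90, 104 and 66, and 39 and 173 with the same alternatives. For 4T1 against 168FARN, 77 and 89 became 93 and 73 when scaled by all probes, 94 and 79 by quantile scaling, 69 and 75 with none and 52 and 69 with normexp. For 4T1 against 4TO7 it was 56 and 80, against 79 and 40 when scaled by all probes, 105 and 7 with none and 30 and 119 with normexp. It went from 90 higher and 108 lower to 107 and 72 with none and 50 and 157 with normexp for 168FARN against 67NR, from 71 and 108 to 47 and 152 with normexp for 4TO7 against 67NR, and from 79 and 88 to 38 and 127 with none and 101 and 54 with normexp for 4TO7 against 168FARN.

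The difference between 2 members on the same array does not depend on a scale factor shared by its probes, so its change from line to line was tested for the 10 pairs of main strands. An exact permutation test over the 15400 partitions of the 12 arrays into 4 sets of 3 was used, with p adjusted over the 10 pairs. All 10 pairs changed between lines (exact test, adjusted p from 0.000162 to 0.00584), and for 4 pairs the unadjusted p was 6.49e-05, the smallest this test can give. Most tested miRNAs differed between lines, with 40% called higher and 48% lower in 168FARN against 67NR. Pairs of other miRNAs were not tested, so the count does not set the family apart.

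The pair that differs by a single base changed by 2.67-fold. Relative to the 67NR mean, mmu-miR-30a minus mmu-miR-30e was at 1.28, 1.35 and 1.27 on the 168FARN arrays, 0.75, 0.61 and 0.83 on those of 4TO7, and 1.41, 1.37 and 1.47 on those of 4T1, against -0.05 to 0.03 in 67NR. The 3 other lines were above 67NR without overlap, with 4TO7 below 168FARN and 4T1 (exact permutation p = 6.49e-05, adjusted 0.000162). mmu-miR-30a minus mmu-miR-30d had a range of 1.75 over line means, or 3.37-fold: it was at 1.95, 1.76 and 1.55 in 168FARN and at 0.75 to 1.13 in 4TO7 and 4T1 (exact permutation adjusted p = 0.000568). Set against each of the 4 other main strands, mmu-miR-30a stood higher in 168FARN, 4TO7 and 4T1 than in 67NR in 12 of 12 line means, and in 36 of 36 array values lay above all 67NR arrays. These comparisons share the 67NR arrays and the mmu-miR-30a reading of each array, so the counts are not of independent values. The 12 line means restate that mmu-miR-30a had the highest difference from 67NR of the main strands in each line. On slide 1, 168FARN replicate 1 had mmu-miR-30a above the 4 others by 0.84 to 1.95 relative to 67NR.

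As scaled here, mmu-miR-30b and mmu-miR-30e took opposite courses among the 3 lines other than 67NR. Unscaled, both were lower in 4TO7 than in 168FARN (-0.34 and -0.74) and both higher in 4T1 than in 4TO7 (1.19 and 0.53). Only the change in their difference is free of the scale factor. Their difference, relative to 67NR, was 0.09 in 168FARN, 0.49 in 4TO7 and 1.15 in 4T1 (exact permutation adjusted p = 0.000162). mmu-miR-30b minus mmu-miR-30c ran from -0.37 in 168FARN to 0.64 in 4T1, a range of 2.01-fold, and mmu-miR-30d minus mmu-miR-30e from -0.45 to 0.44 between the same lines (exact permutation adjusted p = 0.000162 and 0.000260). mmu-miR-30c minus mmu-miR-30e had the smallest range of the 10, 0.52 or 1.43-fold, with arrays of 67NR all below the others. These members share the Nfyc locus only through Mir30c-1, and the level of mmu-miR-30c does not tell Mir30c-1 from Mir30c-2.

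mmu-miR-30b minus mmu-miR-30d, the pair on chromosome 15, differed mainly between 67NR and the rest. Relative to 67NR it was at 0.78, 0.46 and 0.38 on the 168FARN arrays, 0.70, 0.64 and 0.73 on those of 4TO7, and 0.75, 0.79 and 0.60 on those of 4T1, so those 3 lines overlapped (exact permutation adjusted p = 0.00584). Without the 67NR arrays its range was 0.18 (exact permutation adjusted p = 0.321), and with quantile scaling 0.21 (adjusted p = 0.301). The 9 other pairs remained called in all 22 alternatives run on the pairs, the one without 67NR included. Among the 22, leaving out the scale factor, taking it over all probes and halving or doubling the floor could not change a pair. The factor cancels within an array, and the main strands lay above the floor in each case.

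**Figure D3:**
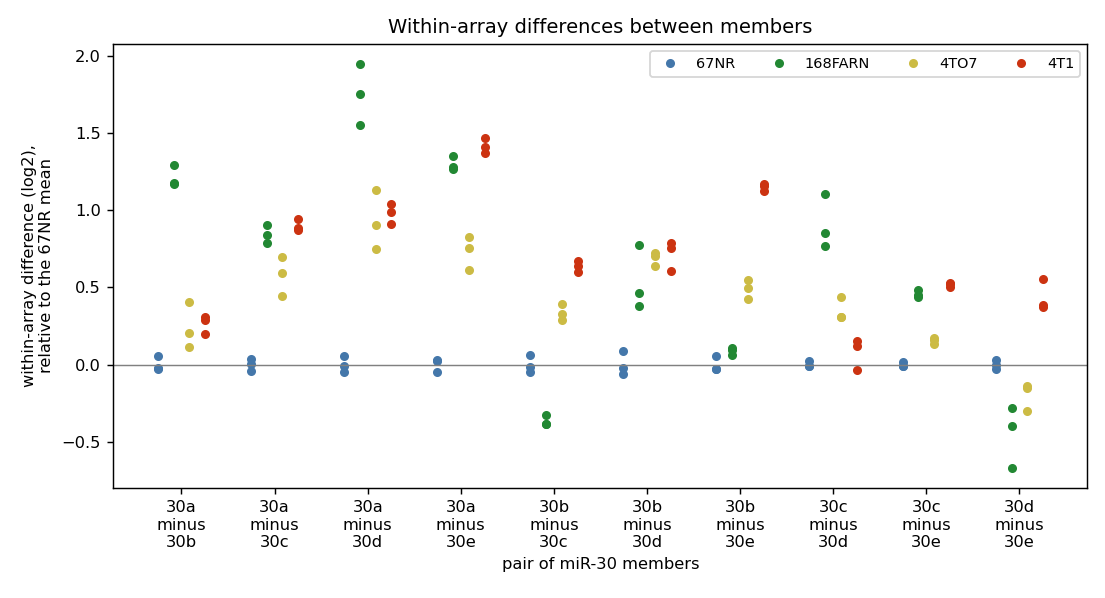
Within-array difference of 2 members (log2, vertical axis), relative to its mean on the 67NR arrays, for the 10 pairs of main strands; each point is 1 array, coloured by line. The 168FARN arrays reach 1.95 for 30a minus 30d, and the 168FARN, 4TO7 and 4T1 points of 30b minus 30d overlap.

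The levels of members over the arrays were also correlated, as a description of 12 arrays that fall into 4 lines; the values of an array share its scale factor. Pearson's r was 0.95 for mmu-miR-30c and mmu-miR-30e and 0.91 for mmu-miR-30b and mmu-miR-30d. For members that share no locus it was 0.84 for mmu-miR-30d and mmu-miR-30e and 0.82 for mmu-miR-30c and mmu-miR-30d. It was 0.57 for mmu-miR-30b and mmu-miR-30c and 0.59 for mmu-miR-30b and mmu-miR-30e. For mmu-miR-30a with the others it was between 0.04 and 0.50, the last with mmu-miR-30c. Over the 9 arrays without 67NR, r was 0.90 for mmu-miR-30a and mmu-miR-30c, neighbours on chromosome 1 through Mir30c-2, and 0.90 for mmu-miR-30b and mmu-miR-30d, neighbours on chromosome 15. It was 0.51 for mmu-miR-30c and mmu-miR-30e and -0.96 for mmu-miR-30b and mmu-miR-30e. It turned to -0.83 for mmu-miR-30d and mmu-miR-30e, -0.24 for mmu-miR-30c and mmu-miR-30d and -0.46 for mmu-miR-30b and mmu-miR-30c. For mmu-miR-30a it was -0.15 with mmu-miR-30b, 0.02 with mmu-miR-30d and 0.16 with mmu-miR-30e.

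The array also read passenger strands of the family, of which 2 could be followed beside their main strand. They are shown because they differ from each other by 1 base, G18A, and share a seed that is not that of the main strands.
mmu-miR-30a*: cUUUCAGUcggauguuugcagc
mmu-miR-30e*: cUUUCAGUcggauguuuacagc
mmu-miR-30e* was well above background on all 12 arrays. It read -3.33, -3.22 and -3.27 on the 67NR arrays, -4.80, -4.75 and -4.93 on those of 168FARN, -4.98, -4.98 and -4.95 on those of 4TO7, and -4.94, -4.997 and -5.02 on those of 4T1. Its 67NR arrays lay above all others, as did those of mmu-miR-30e. The differences from 67NR were -1.55 in 168FARN, -1.70 in 4TO7 and -1.71 in 4T1 (SE 0.05; limma adjusted p from 1.31e-11 to 2.79e-11). 4TO7 and 4T1 overlapped and did not differ in the fit (0.01 ± 0.05 SE, adjusted p = 1.00), where the main strand did by 0.19. Unscaled, the signal of mmu-miR-30e* was 45.7, 47.8 and 37.2 on the 67NR arrays and 35.7, 35.6 and 27.5 on those of 4T1. It was 43.5, 34.6 and 26.0 in 168FARN, which overlapped 67NR, and 19.0, 19.5 and 21.6 in 4TO7.

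mmu-miR-30a* read -4.26, -4.29 and -4.38 on the 67NR arrays, -4.58, -4.38 and -4.74 on those of 168FARN, -5.25, -5.57 and -5.15 on those of 4TO7, and -4.81, -4.84 and -4.90 on those of 4T1. In 4TO7 only 1 of the 3 arrays was well above background. In 4T1 it was lower than in 67NR by 0.54 ± 0.11 (SE; limma adjusted p = 0.000661), where its main strand differed by 0.02. Unscaled, the signal of mmu-miR-30a* was 24.0, 22.9 and 17.3 on the 67NR arrays and 39.2, 39.6 and 29.8 on those of 4T1. The unscaled order was thus the opposite one. The within-array difference of main and passenger strand changed between lines for miR-30e (range 0.46; exact permutation p adjusted over the 2 hairpins = 0.000779) and for miR-30a (range 0.52; adjusted p = 0.0129), and for both it was lowest in 67NR. mmu-miR-30c-1* and mmu-miR-384-5p were not well above background on any array. mmu-miR-30c-2* was so on all 3 of the 168FARN arrays and 1 of 4T1, at or near the floor, with a 168FARN mean of -5.49 ± 0.09.

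**Figure D4:**
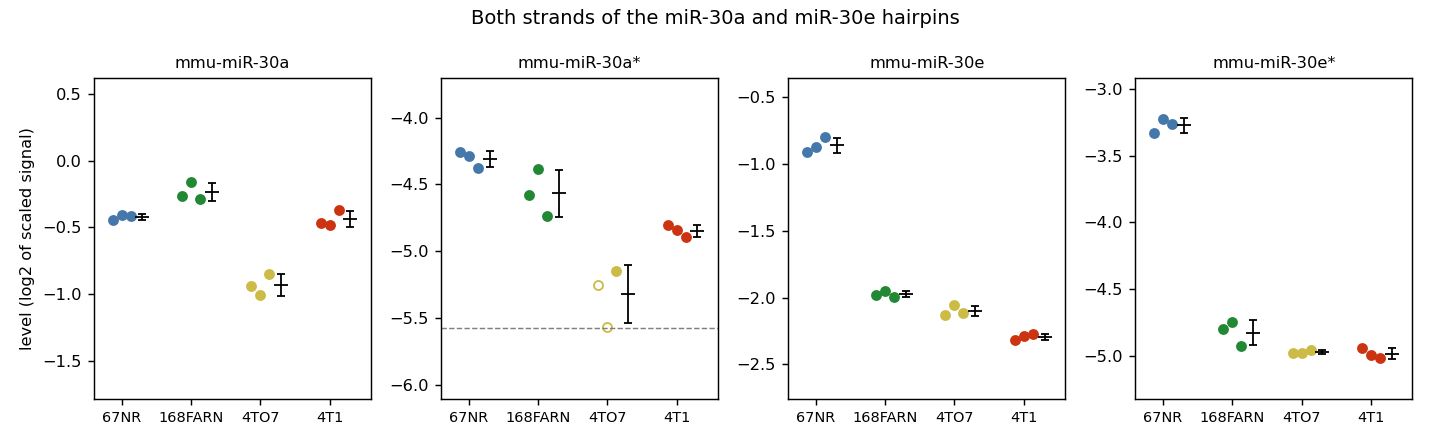
Levels (log2 of scaled signal, vertical axis, the same span in every panel) of the main and passenger strands of miR-30a and miR-30e on the 3 arrays of each line; filled points were well above background, open points were not, bars are mean ± SD and the dashed line is the floor. mmu-miR-30e* drops from 67NR to the other lines as mmu-miR-30e does, and mmu-miR-30a* has 2 open points in 4TO7.

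The main strands each had 2 or 3 probes of different length, of which the brightest stood for the miRNA. For mmu-miR-30a they did not agree in 4T1 against 67NR: the difference was 0.42 with the probe over 15 bases, 0.19 with 16 and -0.02 with 17. In 168FARN against 67NR the same 3 probes gave 0.47, 0.31 and 0.19. Across the 5 main strands and the 3 differences from 67NR, the shortest probe gave a higher value than the longest in 15 of 15, by 0.003 to 0.44. The 3 differences of a member share the 67NR readings of its probes, so the 15 are not independent. Whether the probes of other miRNAs shifted in the same way was not tested. For mmu-miR-30b, mmu-miR-30c, mmu-miR-30d and mmu-miR-30e both probes had the same sign in all of the differences from 67NR. mmu-miR-30e, for example, was at -1.34 with 16 bases and -1.43 with 17 in 4T1 against 67NR.

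**Figure D5:**
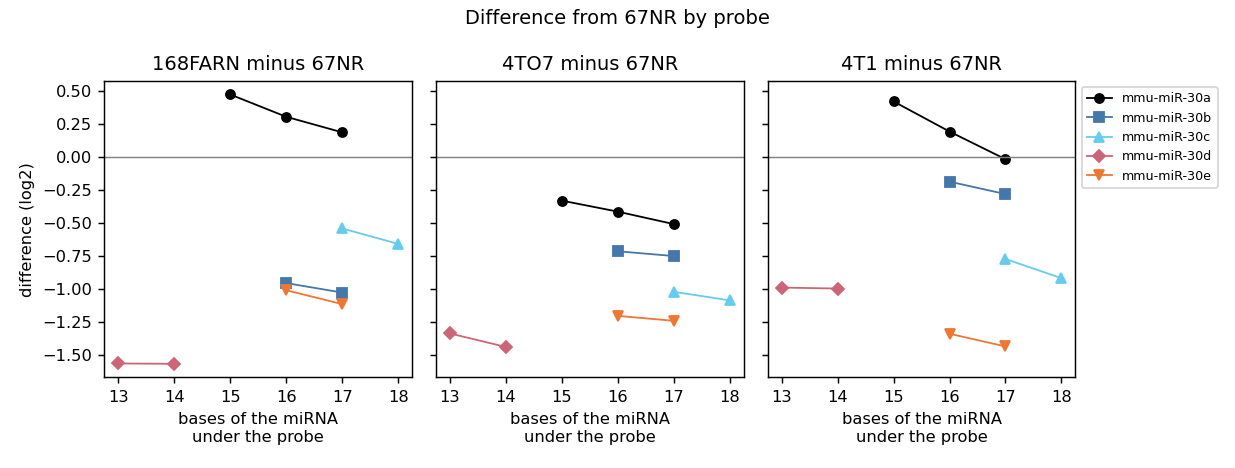
Difference from 67NR (log2, vertical axis) in 168FARN, 4TO7 and 4T1 for each probe of the 5 main strands, by the number of bases of the miRNA under the probe (horizontal axis). Lines join probes of 1 miRNA, and the points of mmu-miR-30a in 4T1 run from 0.42 to -0.02.

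For each main strand the 3 miRNAs with the highest Pearson r over the 12 arrays were named among the 216 tested miRNAs outside the family. For mmu-miR-30a they were mmu-miR-362-5p (0.89), mmu-miR-28 (0.85) and mmu-miR-125a-3p (0.81), and for mmu-miR-30b mmu-miR-338-3p (0.95), mmu-miR-151-5p (0.94) and mmu-miR-130b (0.93). mmu-miR-30c was most like mmu-miR-16 (0.99), mmu-miR-10a (0.98) and mmu-miR-423-5p (0.98), and mmu-miR-30d like mmu-miR-151-5p, mmu-miR-324-5p and mmu-miR-103 (0.98 each). mmu-miR-30e was most like mmu-miR-148b (0.997), mmu-miR-128 (0.99) and mmu-miR-331-3p (0.99). Over the 9 arrays without 67NR these correlations were 0.79 to 0.98, the first for mmu-miR-30e with mmu-miR-331-3p and the last for mmu-miR-30e with mmu-miR-148b. mmu-miR-151-5p stood on the lists of both members from chromosome 15.

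A list of 18 other miRNAs reported, like miR-30, as repressors of epithelial-mesenchymal transition or of tumour-initiating cells (the miR-200 family, miR-205, miR-34, let-7 and miR-98) had 12 tested members, all of them let-7, miR-98 or miR-34, since no member of the miR-200 family and not miR-205 passed the filter. In 4T1 against 67NR 9 of these 12 were called higher and 1 lower, with a median difference of 1.59, where the 5 main strands of miR-30 had 0 higher and 4 lower, with a median of -0.92. Of all tested miRNAs 32% were called higher and 47.6% lower, with a median of -0.05. In 4T1 against 168FARN the list had 3 higher and 8 lower, with a median of -0.46, and the main strands 2 higher and 3 lower, with a median of -0.20. mmu-miR-34b-5p and mmu-miR-34c, which are in the counts and medians of the list, were read on no array of 67NR, 4TO7 or 4T1. Both passed the filter only through 168FARN, so their place in 4T1 against 168FARN was set in advance. In 4T1 against 4TO7 the list had 2 higher and 4 lower, with a median of -0.05, and the main strands 4 higher and 1 lower, with a median of 0.44. Of all tested miRNAs 24.9% were called higher and 35.6% lower there, and 34.2% and 39.6% in 4T1 against 168FARN. mmu-miR-34a was read on no array of 4TO7 and mmu-miR-98 on none of 67NR. Their differences from those lines thus set a signal against an unread one.

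The labelled source, breast cancer, was set against epithelial miRNAs. Of the 6 on the list, none was read well above background throughout any line. mmu-miR-200a, mmu-miR-200b, mmu-miR-429 and mmu-miR-205 were read on no array, and mmu-miR-200c and mmu-miR-141 on none outside 67NR. The summed epithelial level was 0.148 to 0.164 on the 67NR arrays and 0.126, the floor of all 6, on the others. Of 5 mesenchymal and fibroblast miRNAs on the array, 3 were read on all 168FARN arrays, with a summed level of 0.302 to 0.332 there and 0.105 in the 3 other lines, where none was read. Of 5 haematopoietic miRNAs 1 was read on all arrays of 168FARN and of no other line (mmu-miR-223, mmu-miR-142-5p, mmu-miR-150 and mmu-miR-451 on no array). Of 4 muscle miRNAs 1 was read there (mmu-miR-1, mmu-miR-133a and mmu-miR-133b on no array). Of 2 endothelial ones 1 was read in 67NR, 4TO7 and 4T1, with a summed level of 0.272 to 0.291 in 67NR and 0.0419 to 0.0626 elsewhere, and mmu-miR-126-5p was read on none. The part of these markers in the differences of miR-30 was not tested.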

How the data were processed

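Total RNA taken with Trizol, 100 ng per array, was labelled by the maker's miRNA protocol, per the labels' protocols. Per the file headers, the deposited intensity of a spot is the processed signal of Feature Extraction 10.2.1.3, background-subtracted and not scaled between arrays. Control spots and 284 to 508 outlier-flagged spots per array were left out. The spots of each of 1712 probes were averaged, divided by the array's 75th percentile over 170 probes, floored at 0.0209 and taken to log2. The brightest probe stood for a miRNA. limma 3.58.1 in R 4.3.3 (data.table package, version 1.17.8) fitted the 4 lines to all 12 arrays, with 8 residual degrees of freedom, and was tested on simulated data. Depth does not apply to arrays, and their number limits the precision.

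Named were the 6 members, the other miR-30 arms, miRNAs with the same seed, the 3 most correlated miRNAs per main strand, and list members read in no line. mmu-miR-34b-5p and mmu-miR-34c were named for their way through the filter, and mmu-miR-34a and mmu-miR-98 as unread in a line. The members and lists were chosen with earlier results of these data known. Alternatives covered scaling, background, probes, spots, filter, floor, slide, replicate number, arrays left out and samples in the fit, and the fit without 67NR was added after seeing the data. Same-numbered arrays did not deviate together (6 of 18 correlations over 0.1, from -0.776 to 0.511), so the numbers were not taken to pair the samples.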

Additional observations from a re-analysis of the deposited data

How the results depend on the processing

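Over all 6 members, mmu-miR-30b* at its floored value included, the calls numbered 6 in 4T1 against 168FARN, but 3 without scaling and 3 when scaled to the 75th percentile of all probes. They numbered, when unscaled, 3 in 168FARN against 67NR and 3 in 4TO7 against 67NR, each from 5, and with outlier spots kept 2 in 4TO7 against 168FARN, from 4. The replicate block left the counts at 4, 5, 6, 6, 5, 5 and 4 over the 7 comparisons, each of the same members as without it. As scaled here, each comparison with 4T1 holds a call of mmu-miR-30b*, which passed the filter only through 4T1 and so was favoured in advance. These counts therefore describe the processing and not the family. The shares over all tested miRNAs stand with each comparison above. Leaving out 1 array in turn, no called result changed sign or lost its call: 502 values stayed on their side of the threshold, and 2, both of mmu-miR-30a in 4T1 against the mean, passed it without 168FARN replicate 2 or 4TO7 replicate 3 (limma adjusted p = 0.0227 and 0.0215). Many of the 502 could not change sign: between 2 lines, leaving out an array of another line alters the p-value and not the difference. The 502 also hold the floored values of mmu-miR-30b*. Differences near 0 that were not called did change sign, namely those of mmu-miR-30d in 4T1 against the mean and mmu-miR-30a in 4T1 against 67NR.

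Signs turned as follows where the difference was called in at least 1 of the 2 settings, and unless named as the alternative's construction the cause was not tested. With no scaling, which keeps the lower signal of the 67NR arrays in the values, 4T1 against the mean gave 0.37 for mmu-miR-30c and 0.059 for mmu-miR-30e. 4T1 against 67NR gave 1.29, 1.02, 0.39 and 0.31 for mmu-miR-30a, 30b, 30c and 30d, and 168FARN against 67NR gave 0.17, 0.54 and 0.085 for mmu-miR-30b, 30c and 30e. The same setting gave 0.075 for mmu-miR-30a in 4TO7 against 67NR, 0.53 for mmu-miR-30e in 4T1 against 4TO7, and -0.34 and -0.49 for mmu-miR-30b and mmu-miR-30d in 4TO7 against 168FARN. The 75th percentile of all probes gave 0.071 for mmu-miR-30c in 4T1 against the mean, 0.69 and 0.43 for mmu-miR-30a and mmu-miR-30b against 67NR, 0.029 for mmu-miR-30a against 168FARN and 0.087 for mmu-miR-30e against 4TO7. mmu-miR-30a in 4T1 against 67NR was at 0.204 with quantile scaling and 0.199 with the mean of all probes, and at -0.034 in 168FARN against 67NR with the gene-level total signal. The normexp background gave mmu-miR-30b* -0.22 (4T1 against the mean), -0.45 (4T1 against 67NR), -0.22 (4T1 against 4TO7) and -0.22 (4TO7 against 67NR), mmu-miR-30d -0.21 in 4T1 against the mean, and mmu-miR-30e 0.0084 in 4TO7 against 168FARN. mmu-miR-30b* sits at the floor, so its values move with the floor: with the floor doubled it was at 0 in all 7 comparisons. mmu-miR-30d in 4T1 against the mean was at -0.14 with slide as a term, not called in either. With outlier spots kept, mmu-miR-30a in 4T1 against the mean was called (0.10, adjusted p = 0.0170), as it was with the mean of all probes (0.23), and mmu-miR-30b in 4T1 against 67NR was no longer called (adjusted p = 0.0729), nor were mmu-miR-30e in 4T1 against 4TO7 (adjusted p = 0.0533) and mmu-miR-30b and mmu-miR-30e in 4TO7 against 168FARN (adjusted p = 0.0505 and 0.0531, limma). Of the 10 pairs of main strands, 9 or 10 changed between lines in each of the 22 alternatives, of which those of scale factor or floor could not alter a pair. With 3 arrays per line, a test of 1 value between 2 lines by permutation could not pass the threshold, so only the test over 4 lines was run for pairs.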
